A study of Homo sapiens with 6 samples.

Results

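EIF4E, the protein that binds the methylated cap at the start of a messenger RNA, is described here with its relatives EIF4E2 and EIF4E3, its inhibitors EIF4EBP1, EIF4EBP2 and EIF4EBP3, the kinases MKNK1 and MKNK2 that phosphorylate it, and its transporter EIF4ENIF1. These 9 genes were taken by symbol from the 60612 rows of the deposited gene table, and each symbol had 1 row. A filter on low values kept 8 of the 9 among 13748 tested genes, and EIF4EBP3 did not pass it. Messenger RNA was sequenced as poly(A)-selected, paired-end libraries from a single line labelled Hep3B, a human hepatocellular carcinoma line. The siEIF4G2 group (3 libraries) received siRNA to EIF4G2 at 50 nM, and the siNC group (3 libraries) received a control siRNA, also at 50 nM. The labels give no time of treatment, and no siRNA sequence is printed here. Nor do they say whether replicates came from separate cultures. The p-values therefore cover only the spread among these libraries, which may be technical.

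In cap-dependent translation EIF4E joins the scaffold EIF4G1 and the helicase EIF4A1 in the complex eIF4F, which brings the small ribosomal subunit to a messenger RNA. The EIF4E-binding proteins compete with EIF4G1 for the same surface of EIF4E, and the kinase complex mTORC1 releases that block by phosphorylating them. The MNK kinases, coded by MKNK1 and MKNK2, dock on EIF4G1, are switched on by the MAP kinases ERK and p38, and phosphorylate EIF4E. EIF4G2, the gene that was silenced, codes for a relative of EIF4G1 that lacks the EIF4E-binding site. Messenger RNA levels show neither phosphorylation nor translation.

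What the binding proteins share is a short EIF4E-binding motif, a tyrosine followed after 4 residues by a leucine and a second hydrophobic residue. The coding bases of this motif are shown for 3 of the binding proteins, EIF4EBP2 being the member that changed most. They come from GENCODE release 29 transcripts on GRCh38, 5′ to 3′, with the tyrosine and leucine codons in capitals.
EIF4EBP2: TATgacagaaagtttCTGttg
EIF4EBP3: TACgaccgaaagttcCTGctg
EIF4ENIF1: TATacaaaagaagaaCTCttg
The EIF4EBP2 motif lies in coding exon sequence at chr10:70419928-70419948 on the plus strand, with the tyrosine at codon 54 and the leucine at codon 59 of 120. That of EIF4EBP3 lies at chr5:140548920-140548940 on the plus strand, with the tyrosine at codon 40 and the leucine at codon 45 of 100. That of EIF4ENIF1 starts at codon 30 of 985 and is split by an intron, within chr22:31471906-31488631 on the minus strand. EIF4EBP2 and EIF4EBP3 have the same base at 17 of the 21 positions, and EIF4EBP2 and EIF4ENIF1 at 11 of the 21.

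The targeted gene was lower as labelled. EIF4G2 read 178, 180 and 199.8 CPM in siEIF4G2 libraries, against 1103, 913 and 998 CPM in siNC libraries (log2 fold change -2.43, SE 0.088; edgeR adjusted p = 0.000207). CPM is a gene's count scaled to a fixed library total with edgeR's TMM factors. Total counts lay between 63351653 and 72863628 per library. The cell label could not be matched to liver markers. Of 16 hepatocyte and hepatoma markers none was tested, and 11, ALB, AFP, APOA1 and GPC3 among them, were listed at 0 in every library. Their summed level was 0.187 to 0.363 CPM in siEIF4G2 and 0.248 to 0.326 CPM in siNC. The 6 epithelial markers summed to 1978 to 2222 CPM in siEIF4G2 and 2272 to 2326 CPM in siNC, almost wholly from KRT8 and KRT18. The 5 mesenchymal markers summed to 886 to 921 CPM in siEIF4G2 and 929 to 993 CPM in siNC, mostly from VIM. The 4 endothelial markers summed to 3.33 to 4.12 CPM in siEIF4G2 and 10.1 to 10.9 CPM in siNC, and the 5 immune markers, with PTPRC and CD3E at 0, to 19.4 to 25.1 CPM in siEIF4G2 and 31.5 to 36.9 CPM in siNC. The 6 adipose markers, of which ADIPOQ, LEP and CIDEC were at 0, summed to 12.8 to 13.8 CPM in siEIF4G2 and 9.82 to 10.7 CPM in siNC, mostly from LPL. The part of these marker differences in the results below was not tested. In bulk samples, fewer cells of a type and less RNA per cell cannot be told apart.

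The comparison of siEIF4G2 with siNC asked how the EIF4E system changed at the messenger RNA level when EIF4G2 was silenced. EIF4EBP2, an inhibitor, fell 2.05-fold, EIF4E itself rose 1.40-fold, and the kinase gene MKNK2 rose 1.76-fold. The inhibitor EIF4EBP1 and the cap-binding relatives EIF4E2 and EIF4E3 did not pass the test, and nor did MKNK1 and EIF4ENIF1. Of the 8 tested members, 2 rose, 1 fell and 5 did not pass an edgeR adjusted p of 0.05. Over all tested genes 33.4% passed, 15.9% higher and 17.6% lower, so the share of members called was close to the background. The median log2 fold change was 0.017 over the tested members and 0.0075 over all tested genes. The 3 values of one group lay wholly on one side of those of the other for 6 of 8 members, beside 50.6% of all tested genes. A change of at least 2-fold that passed the test was seen for 1 of 8 members and for 3.55% of all tested genes.

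**Figure D1:**
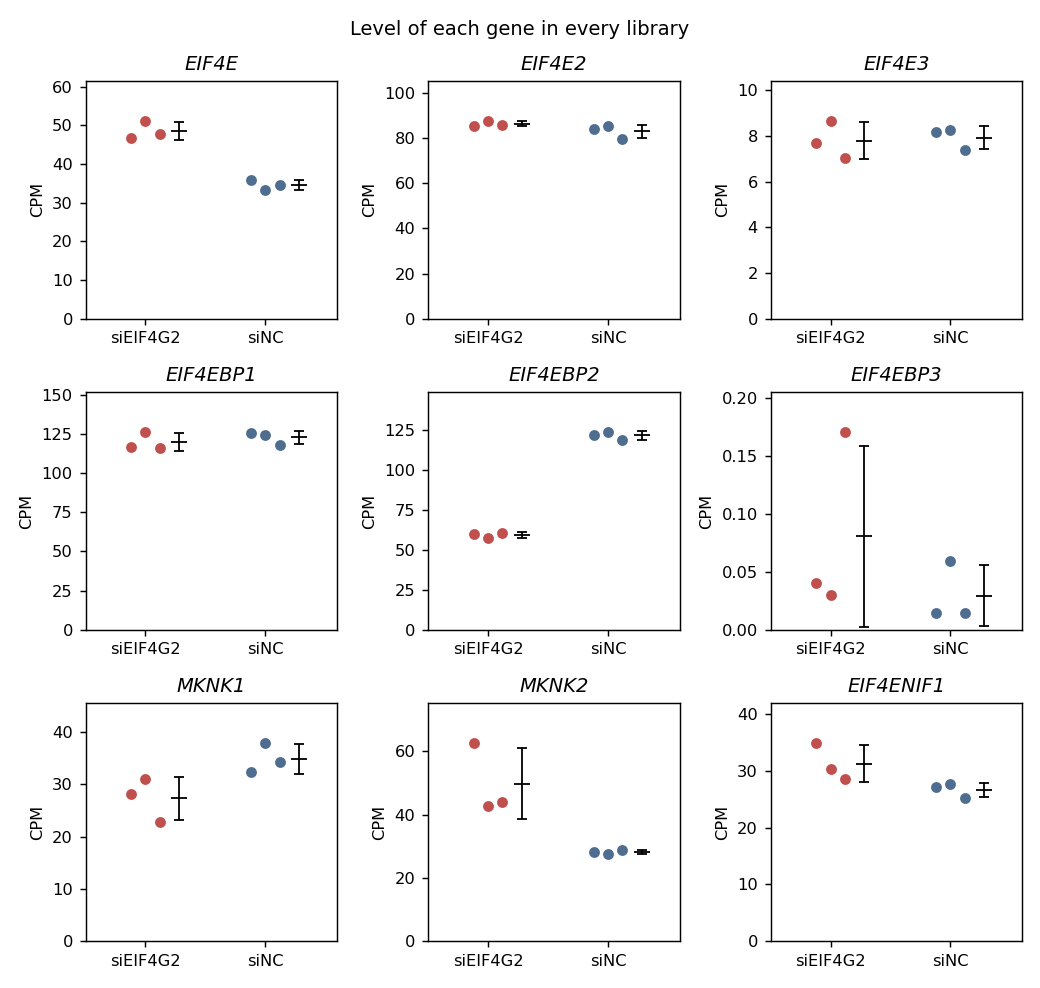
CPM of each of the 9 genes in every library (points; siEIF4G2 left, siNC right), with mean and SD (bars, n = 3 each); each axis starts at 0 and has its own scale. EIF4EBP2 sits at 57.4 to 60.6 CPM in siEIF4G2 and 119 to 124 CPM in siNC, and EIF4EBP3 is near 0 in both.

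Among the cap-binding genes, EIF4E was higher in every siEIF4G2 library. EIF4E (ENSG00000151247, chromosome 4 from 98871684 to 98930637, minus strand, GRCh38) read 46.7, 51.3 and 47.7 CPM in siEIF4G2 (here and below in the order of replicates 1, 2 and 3), against 35.9, 33.4 and 34.7 CPM in siNC. The groups did not overlap, and the lowest siEIF4G2 library lay above the highest siNC library by more than the range of either group. The means were 48.6 ± 2.38 CPM in siEIF4G2 and 34.6 ± 1.25 CPM in siNC (SD, n = 3 each). EIF4E was thus 1.40-fold higher (log2 fold change 0.49, SE 0.061; edgeR adjusted p = 0.00250). With 3 libraries a group, an exact permutation test (two-sided) cannot go below p = 0.1, which is what it gave for EIF4E and for each other member whose groups did not overlap. EIF4E has processed pseudogenes, and reads may be shared with them. The only one that was tested, EIF4EP2, read 9.24, 10.1 and 12.4 CPM in siEIF4G2 and 8.30, 8.29 and 9.37 CPM in siNC, with overlapping groups (log2 fold change 0.29, SE 0.14; edgeR adjusted p = 0.152).

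EIF4E2, also called 4EHP, binds the cap without joining EIF4G1 and serves in translational repression together with GIGYF2. It read 85.6, 87.8 and 85.9 CPM in siEIF4G2, against 84.2, 85.2 and 79.5 CPM in siNC. Although its groups did not overlap, the closest values were 85.6 CPM in siEIF4G2 and 85.2 CPM in siNC, and the log2 fold change of 0.059 (SE 0.046) did not pass (edgeR adjusted p = 0.369). Its 95% interval ran from -0.053 to 0.17. EIF4E3, a cap-binding relative of low abundance, read 7.69, 8.66 and 7.03 CPM in siEIF4G2, against 8.17, 8.24 and 7.36 CPM in siNC. The groups overlapped, and the log2 fold change was -0.024 (SE 0.12; edgeR adjusted p = 0.894), with a 95% interval from -0.30 to 0.26. Changes of EIF4E3 up to about that size were not detectable here. The EIF4E2 gene lies on chromosome 2 from 232550674 to 232583642, and the EIF4E3 gene on chromosome 3 from 71675414 to 71754383.

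Of the 3 inhibitor genes, EIF4EBP2 fell, EIF4EBP1 did not pass the test and EIF4EBP3 was not tested. EIF4EBP2 (ENSG00000148730, chromosome 10 from 70404145 to 70428618, plus strand) read 60.0, 57.4 and 60.6 CPM in siEIF4G2, against 121.8, 123.8 and 118.8 CPM in siNC. The groups lay far apart, and neither group spread by more than a few CPM. The means were 59.3 ± 1.72 CPM in siEIF4G2 and 121 ± 2.50 CPM in siNC (SD, n = 3 each), which is -1.03 as a log2 fold change (SE 0.045; edgeR adjusted p = 0.000207). EIF4EBP2 was 2.05-fold lower, and 2.59% of all tested genes passed the test with a fall of at least 2-fold. No other gene of the table overlaps its interval, and its 3 pseudogenes, EIF4EBP2P1, EIF4EBP2P2 and EIF4EBP2P3, were listed at 0.

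EIF4EBP1, the best studied inhibitor, matched EIF4EBP2 in counts in siNC but did not follow it. EIF4EBP1 (chromosome 8 from 38030534 to 38060365) read 116.8, 126.3 and 116.0 CPM in siEIF4G2, against 125.8, 124.4 and 117.8 CPM in siNC. The groups overlapped over most of their range. The log2 fold change was -0.035 (SE 0.053; edgeR adjusted p = 0.653), and its 95% interval, from -0.16 to 0.094, did not reach the fall of EIF4EBP2. EIF4EBP3 (chromosome 5 from 140547662 to 140549576) had counts of 3, 2 and 11 in siEIF4G2, against 1, 4 and 1 in siNC. It was not tested, and it was at or near the floor of 3 counts in 5 of the 6 libraries. Its exons share 507 of 691 bases with the readthrough gene ANKHD1-EIF4EBP3 in GENCODE 29, whose log2 fold change was 0.016 (SE 0.097; edgeR adjusted p = 0.914). Reads of EIF4EBP3 may have been counted there, so its own level is uncertain.

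Of the MNK kinase genes, MKNK2 rose and MKNK1 did not pass the test. MKNK2 (ENSG00000099875, chromosome 19 from 2037465 to 2051244, minus strand) codes for MNK2, the family member with high basal activity. It read 62.7, 42.6 and 43.8 CPM in siEIF4G2, against 28.2, 27.6 and 28.7 CPM in siNC. Replicate 1 of siEIF4G2 stood well above the other two, while the siNC libraries lay within about 1 CPM of one another. The means were 49.7 ± 11.2 CPM in siEIF4G2 and 28.2 ± 0.55 CPM in siNC (SD, n = 3 each). MKNK2 was 1.76-fold higher (log2 fold change 0.82, SE 0.16; edgeR adjusted p = 0.0103). Without siEIF4G2 replicate 1 the log2 fold change was 0.62 (edgeR adjusted p = 0.00456).

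MKNK1 (ENSG00000079277, chromosome 1 from 46557407 to 46604294, minus strand), whose product MNK1 is the more inducible kinase, read 28.2, 31.0 and 22.8 CPM in siEIF4G2, against 32.4, 37.9 and 34.3 CPM in siNC. The groups did not overlap, and replicate 3 of siEIF4G2 was the lowest. The log2 fold change of -0.35 (SE 0.13) did not pass after adjustment (edgeR adjusted p = 0.0801), while DESeq2 on the same counts gave an adjusted p of 0.0413. EIF4ENIF1, also called 4E-T, carries EIF4E into the nucleus and into processing bodies. It read 34.9, 30.3 and 28.6 CPM in siEIF4G2, against 27.2, 27.6 and 25.3 CPM in siNC. The groups were separated by less than 1 CPM. The log2 fold change of 0.23 (SE 0.092) did not pass (edgeR adjusted p = 0.105). EIF4ENIF1 (chromosome 22 from 31436977 to 31489937, minus strand) overlaps genes of the other strand, and no source says that strand was used in counting. Its annotated exons share 58 of 6084 bases with SFI1, 364 with AL096701 and none with DRG1, and none of these 3 genes passed the test (edgeR adjusted p = 0.216, 0.884 and 0.725).

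**Figure D2:**
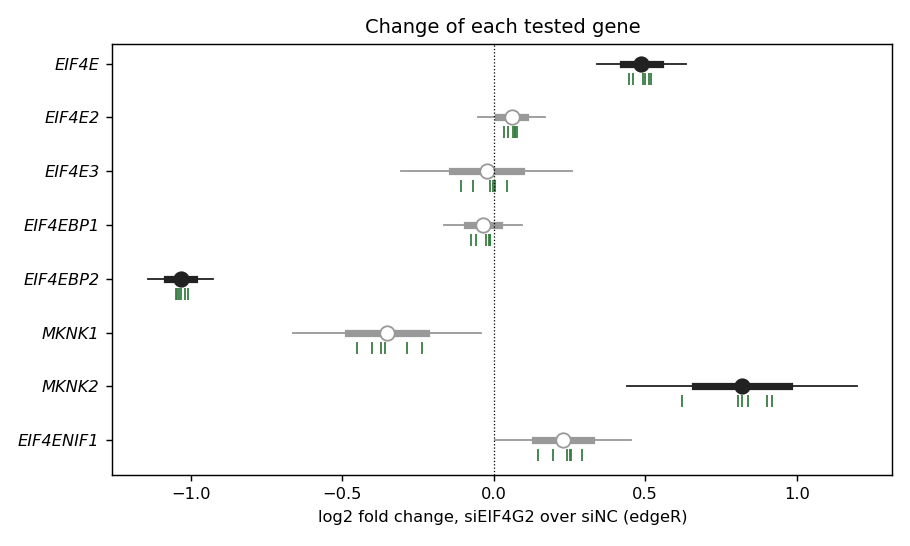
edgeR log2 fold change of the 8 tested genes, siEIF4G2 over siNC, with SE (thick bars) and 95% interval (thin bars). Filled points passed an adjusted p of 0.05, and green ticks are the 6 fits that each leave out 1 library; EIF4EBP2 at -1.03, EIF4E at 0.49 and MKNK2 at 0.82 stand clear of 0 in all of them.

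Ratios taken within a library remove its scaling and are given as a description with no test. The FPKM ratio of EIF4EBP2 to EIF4E was 2.41, 2.10 and 2.39 in siEIF4G2 libraries, against 6.39, 6.97 and 6.43 in siNC libraries. The groups were far apart, and the siEIF4G2 mean was 0.349 of the siNC mean. The ratio itself depends on the length used, and with median coding transcript lengths in place of those behind FPKM it averaged 0.185 in siEIF4G2 and 0.531 in siNC. For all 3 inhibitor genes summed, the FPKM ratio to EIF4E averaged 41.8 ± 0.58 in siEIF4G2 and 63.3 ± 3.05 in siNC (SD, n = 3 each). This ratio averaged only 2.84 in siEIF4G2 and 4.34 in siNC with median coding transcript lengths, so its size depends on the length used. EIF4EBP1 made up nearly all of the summed inhibitor FPKM, since EIF4EBP2 held 5.51% ± 0.39 of it in siEIF4G2 and 10.4% ± 0.20 in siNC. The ratio of MKNK2 to MKNK1 was 3.45, 2.14 and 2.99 in siEIF4G2, against 1.35, 1.13 and 1.30 in siNC, and the groups did not overlap. With median coding transcript lengths it averaged 1.78 in siEIF4G2 and 0.787 in siNC, so which kinase gene was the more abundant in siNC depends on the length used. EIF4E held 19.9% ± 0.51 of the summed FPKM of the 3 cap-binding genes in siEIF4G2 and 15.5% ± 0.75 in siNC. Its share averaged 33.7% in siEIF4G2 and 27.4% in siNC with median coding transcript lengths. With principal transcript lengths it averaged 7.16% in siEIF4G2 and 5.42% in siNC.

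**Figure D3:**
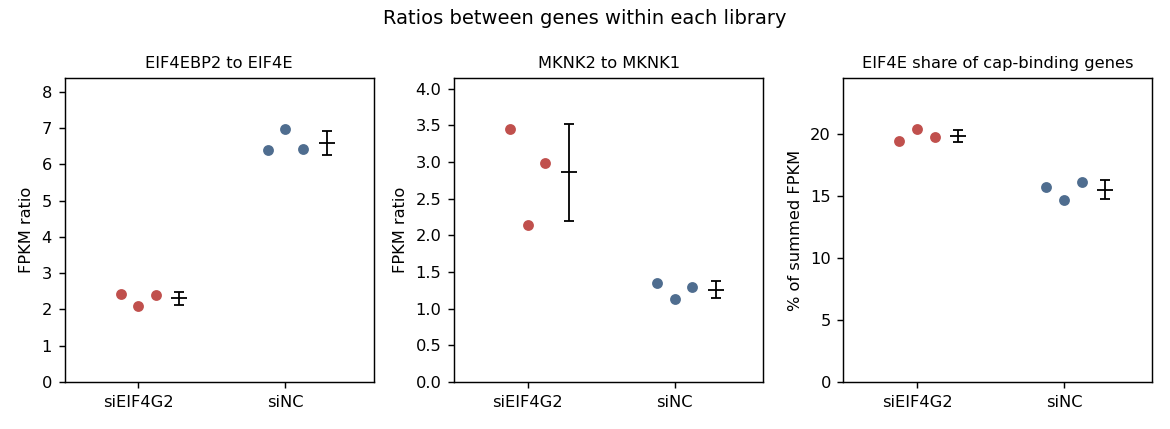
FPKM ratios between genes in every library (points; siEIF4G2 left, siNC right), with mean and SD (bars, n = 3 each). EIF4EBP2 to EIF4E lies at 2.10 to 2.41 in siEIF4G2 and 6.39 to 6.97 in siNC, while MKNK2 to MKNK1 lies at 2.14 to 3.45 in siEIF4G2 and 1.13 to 1.35 in siNC.

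Levels of different genes were compared per length, as FPKM (fragments scaled to exon length and library total). In siEIF4G2 the order was EIF4EBP1 (115 ± 3.68 FPKM), EIF4E2 (11.1 ± 0.029), MKNK2 (8.04 ± 1.90), EIF4EBP2 (6.69 ± 0.29), EIF4ENIF1 (4.32 ± 0.48), EIF4E (2.91 ± 0.098), MKNK1 (2.84 ± 0.40), EIF4E3 (0.608 ± 0.056) and EIF4EBP3 (0.094 ± 0.093), each as mean ± SD over 3 libraries. MKNK2 and EIF4EBP2, and EIF4E and MKNK1, could not be ordered there beyond their spread. In siNC the order was EIF4EBP1 (116 ± 3.76 FPKM), EIF4EBP2 (13.4 ± 0.27), EIF4E2 (10.5 ± 0.37), MKNK2 (4.46 ± 0.091), EIF4ENIF1 (3.62 ± 0.16), MKNK1 (3.57 ± 0.30), EIF4E (2.04 ± 0.068), EIF4E3 (0.607 ± 0.036) and EIF4EBP3 (0.024 ± 0.028), with EIF4ENIF1 and MKNK1 not separable. By mean FPKM over all 6 libraries, EIF4EBP1 lay at the 97.9 percentile of tested genes, EIF4E at the 33.9 and EIF4E3 at the 4.48.

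The order of the genes by level, and with it the low place of EIF4E, depends on the length used. For 85.2% of 13662 tested genes, the length implied by the deposited count and FPKM was a fixed multiple, within 5%, of the union of the gene's exons in GENCODE 29. For EIF4E that union is 14067 bases, set by a principal transcript of 11523 bases, while the median of its protein-coding transcripts is 1097 bases. For EIF4EBP1 the union is 1073 bases. The implied lengths of EIF4EBP1 and EIF4E2 fell below the fixed multiple of their unions by more than 5%, so these genes were exceptions. With the median length of coding transcripts in place of the union, EIF4E reached 44.3 CPM per kilobase in siEIF4G2 and 31.6 CPM per kilobase in siNC, the third of the 9 in siNC after EIF4EBP1 and EIF4E2. The files do not show which transcript lengths were present. A fixed length per gene divides out of its fold change between groups. Whether the transcripts present differed between groups was not tested.

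The promoters of the 3 members that passed the test are shown because they moved in different directions. RefSeq promoter windows on GRCh38.p14 matched 8 of the 9 members, and only those of EIF4EBP2, EIF4E and MKNK2 are printed. Each printed window runs from 250 bases to 1 base before the start that RefSeq gives, 5′ to 3′ on the gene's strand. For EIF4EBP2 and MKNK2 that start is the one in the deposited table. For EIF4E the RefSeq start lies inside the interval of the deposited table, which begins farther upstream, so its window is within the gene as that table draws it. Capitals mark CACGTG (the E-box, which MYC can bind) in EIF4E, GGGCGG (the GC box, which SP1 can bind) in EIF4EBP2 and MKNK2, and TATAAA (the TATA box) in MKNK2, each on either strand.
EIF4EBP2, chr10:70403895-70404144, plus strand: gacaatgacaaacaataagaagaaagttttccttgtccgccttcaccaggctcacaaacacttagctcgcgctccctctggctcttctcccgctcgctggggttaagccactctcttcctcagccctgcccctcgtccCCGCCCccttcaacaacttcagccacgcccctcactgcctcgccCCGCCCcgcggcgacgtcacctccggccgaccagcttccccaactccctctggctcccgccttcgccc
EIF4E, chr4:98929134-98929383, minus strand: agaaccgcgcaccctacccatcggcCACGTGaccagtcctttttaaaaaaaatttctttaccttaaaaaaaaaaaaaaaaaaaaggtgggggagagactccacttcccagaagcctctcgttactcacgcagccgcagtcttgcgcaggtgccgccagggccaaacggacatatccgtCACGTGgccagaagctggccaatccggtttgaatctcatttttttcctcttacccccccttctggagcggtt
MKNK2, chr19:2051245-2051494, minus strand: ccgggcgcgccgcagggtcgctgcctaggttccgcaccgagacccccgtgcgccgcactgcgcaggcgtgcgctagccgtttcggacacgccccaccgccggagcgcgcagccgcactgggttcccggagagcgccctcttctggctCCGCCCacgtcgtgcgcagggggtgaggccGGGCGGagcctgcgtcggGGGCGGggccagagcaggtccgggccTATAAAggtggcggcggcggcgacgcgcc
EIF4E held 2 matches to CACGTG, starting 225 and 72 bases before the RefSeq start. Of 27305 promoters, 6.49% held at least 1 and 0.56% held 2 or more. The EIF4EBP2 window held 2 matches to GGGCGG and that of MKNK2 held 3, while 42.3% of all promoters held at least 1 and 24.4% held 2 or more. MKNK2 also held TATAAA 29 bases before its RefSeq start, as 11.1% of promoters did anywhere in the window. CCAAT was found once in EIF4E, 54 bases before its RefSeq start, and in 33% of all promoters. The motifs GTAAACA, TGACGTCA and TGATGNAA had no match in these windows, and 2.98%, 1.77% and 3.19% of promoters held them. No printed match overlaps another, and a match is a description of the letters.

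Over the 6 libraries, the genes whose log2 CPM followed EIF4EBP2 most closely were STS, a steroid sulfatase, CYTH1, an exchange factor for ARF GTPases, and C12orf57. Their Pearson correlations were 0.9997, 0.9996 and 0.9994, as a description over 6 libraries that share the 2 groups. Of 7983 genes compared, 166 had a correlation over 0.99. STS averaged 113 CPM in siEIF4G2 and 219 CPM in siNC, CYTH1 82.8 CPM in siEIF4G2 and 102 CPM in siNC, and C12orf57 32.5 CPM in siEIF4G2 and 68.2 CPM in siNC. The deposited annotation put 5 members, EIF4E, EIF4E2, EIF4EBP1, MKNK1 and MKNK2, in the insulin signalling pathway of KEGG, and 3 of them in the mTOR pathway. EIF4EBP2 was in neither of these KEGG pathways, but the GO terms for TOR signaling and for the insulin receptor signaling pathway held both EIF4EBP1 and EIF4EBP2.

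Around the members, 8 lists of 130 distinct genes were examined, of which 124 were tested and 51 passed, 25 higher and 26 lower. That share, 41.1%, is beside 33.4% of all tested genes. By list, it was 45% for mTORC1, 29.4% for MAP kinases, 54.5% for eIF4F partners and 40% for the EIF4E2 list. Decapping partners had 38.9% and other interactors 41.2%. For messenger RNAs reported as sensitive to EIF4E the share was 62.5%, and for transcription factors 23.5%. Of mTORC1 and its regulators, which act on the inhibitors, 20 were tested: 3 passed higher, 6 passed lower and 11 did not pass, at a median log2 fold change of -0.0087. SESN1, a stress-induced brake on mTORC1, was 2.06-fold lower (22.4 ± 0.33 CPM in siEIF4G2, 46.0 ± 0.66 CPM in siNC; edgeR adjusted p = 0.000219). PDCD4, an inhibitor of EIF4A, was 1.51-fold lower (85.2 ± 2.42 CPM in siEIF4G2, 128 ± 6.59 CPM in siNC). MAP kinase pathway genes upstream of MNK numbered 17 tested, of which 4 passed higher, 1 passed lower and 12 did not pass (median 0.0014). NRAS and MAP3K5, a RAS GTPase and the kinase ASK1, were 1.29-fold and 1.41-fold higher, and MAPK11, a p38 kinase, was 1.56-fold lower. Adjusted p from edgeR was 0.000895 to 0.00994 for PDCD4 and these 3 genes.

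Of 11 partners of EIF4E in eIF4F and its surroundings, 4 rose, 2 fell and 5 did not pass, with a median log2 fold change of 0.15. The 3 with the smallest p were EIF4H, a cofactor of EIF4A, at 304 ± 12.2 CPM in siEIF4G2 and 543 ± 7.34 CPM in siNC, and PAIP1 and PABPC4, of poly(A)-binding protein function, which were 1.22-fold and 1.27-fold higher. Of 10 tested genes listed around EIF4E2, from its repressor complex to hypoxia-inducible factors, 4 fell and 6 did not pass, with a median of -0.25. ZFP36, which destabilizes AU-rich messenger RNAs, was 1.97-fold lower, HIF1A 1.26-fold lower and EPAS1 1.21-fold lower, the last 2 being hypoxia-inducible factors. GIGYF1, GIGYF2 and ZNF598 of that complex did not pass. Of 18 decapping and deadenylation partners of EIF4ENIF1, 4 rose, 3 fell and 11 did not pass, with a median of 0.0079. PATL1 and EDC3, decapping activators, were 1.27-fold and 1.24-fold higher, and DCP1B, a decapping cofactor, was 1.36-fold lower. Adjusted p from edgeR was 0.000263 to 0.0115 for these 9 genes. The count of 7 decapping genes was 4 without siNC replicate 2.

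**Figure D4:**
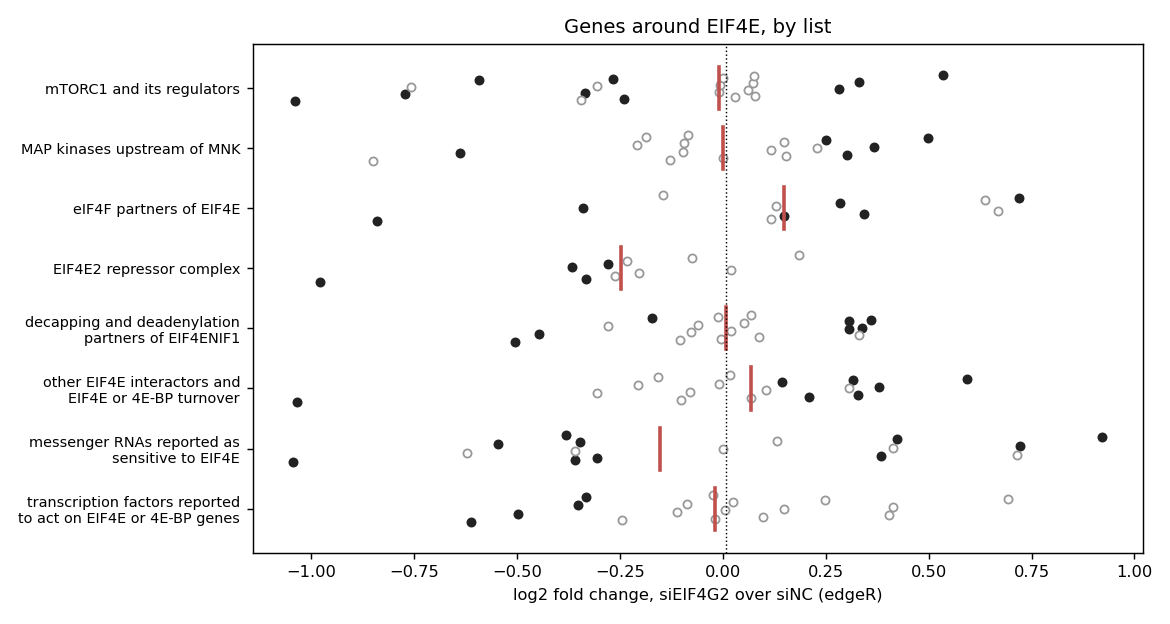
edgeR log2 fold change, siEIF4G2 over siNC, of each tested gene in the 8 lists; filled points passed an adjusted p of 0.05, red bars are list medians and the dotted line is the median of all tested genes (0.0075). The EIF4E2 list has the lowest median, at -0.25, and the eIF4F list the highest, at 0.15.

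Of 17 other interactors of EIF4E or factors of its turnover, 6 rose, 1 fell and 10 did not pass, with a median log2 fold change of 0.069. ANGEL2, a phosphatase of cyclic phosphate RNA ends and relative of the EIF4E-binding ANGEL1, was 1.51-fold higher, and LRPPRC, which takes part in nuclear export with EIF4E, was 1.26-fold higher. PML, a nuclear body protein that can inhibit EIF4E, was 2.05-fold lower (44.3 ± 4.21 CPM in siEIF4G2, 90.7 ± 13.8 CPM in siNC). Of 16 tested messenger RNAs reported as sensitive to EIF4E at the level of translation, 4 rose, 6 fell and 6 did not pass, with a median of -0.15. FGF2, a growth factor, was 2.06-fold lower, ODC1, of polyamine synthesis, 1.89-fold higher, and MCL1, a survival protein, 1.30-fold lower. Among 17 transcription factors reported to act on EIF4E or on its inhibitors, 4 fell and 13 did not pass, with a median of -0.018. CEBPB and CEBPA, members of the C/EBP family, were 1.28-fold and 1.41-fold lower, and HIF1A is given above. Adjusted p from edgeR was 0.000219 to 0.0234 for these 8 genes.

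Some of these counts rested on single libraries. The call count of the 4 transcription factors was 1 when siEIF4G2 replicate 1 was left out and 1 when siEIF4G2 replicate 3 was. That number was 2 on leaving out siNC replicate 2, with no filter on low values, or with a filter at 2 FPKM. CEBPA missed the threshold when either siEIF4G2 replicate 1, siEIF4G2 replicate 3, siNC replicate 2 or siNC replicate 3 was left out (edgeR adjusted p 0.0507 to 0.0725), and was not tested with the filter at 2 FPKM. CEBPB missed it when siEIF4G2 replicate 1, siEIF4G2 replicate 3, siNC replicate 1 or siNC replicate 2 was left out (edgeR adjusted p 0.0664 to 0.0705). The 5 MAP kinase genes were 3 without siEIF4G2 replicate 3 or siNC replicate 2 or with no filter, and the 7 interactors were 4 without siNC replicate 2.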

How the data were processed

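Per the submitters' processing notes, HISAT2 2.0 and StringTie 1.3.0 were used, without stated roles. Genome build, annotation and use of strand: not given in the sources used here. One deposited table of 60612 rows holds, per library, an estimated count (as whole numbers) and an FPKM value. FPKM is listed as 0.0001 by the authors at a count of 0. Of 49060 identifiers shared with GENCODE 29 on GRCh38, 99.9% overlapped it, so coordinates are given as GRCh38.

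For symbols on several rows, that of highest mean FPKM was kept. Tests covered the 13748 genes that reached 0.5 FPKM in 3 or more libraries. The rounded estimated counts went into edgeR's quasi-likelihood test with TMM factors (0.985 to 1.02) and the group as the only term. p-values are two-sided and adjusted by Benjamini-Hochberg over all tested genes. SE is the absolute log2 fold change over the square root of F, and 95% intervals use the fit's degrees of freedom (6.14). The test script was first tested on simulated data. Limits and floors (3 counts) cover counting error only. No pair of replicates agreed within sampling noise (chi-square over genes, 68.5 or more per gene).

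Members and lists were chosen with earlier results of these data known. Named genes were the members, EIF4G2, genes overlapping a member, up to 3 called genes of smallest p per list, and the 3 genes most like the member of smallest p. A gene that this rule names is not reported here. GIGYF1, GIGYF2 and ZNF598, the pseudogenes and the motifs were added after values were seen. Levels by other transcript lengths were also chosen after seeing the data. Alternatives tried were 2 scalings, DESeq2, limma on log2(FPKM + 1) and log2(FPKM + 0.1), 2 filters, summed rows, a replicate block and leaving out each library. Software comprised DESeq2 1.42.0, limma 3.58.1 and edgeR 4.0.16 in R 4.3.3, with Python 3.11.15, numpy 2.4.6, pandas 2.3.3, scipy 1.17.1 and matplotlib 3.10.9.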

Additional observations from a re-analysis of the deposited data

How the results depend on the processing

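EIF4EBP2, EIF4E and MKNK2 passed with the same direction under all 15 alternatives, with adjusted p of at most 0.00655, 0.0189 and 0.0387, and EIF4G2 at most 0.00655. The members called were 3 under 14 alternatives and 4 with DESeq2, which added MKNK1. Leaving out each library in turn gave 3352 to 4134 called genes of all tested, against 4597. EIF4E3, near 0 throughout, changed sign with limma on log2(FPKM + 1) (0.00047) and log2(FPKM + 0.1) (0.00014), and lay between -0.11 and 0.045 on leaving out each library. Without length scaling (CPM), the siEIF4G2 mean over the siNC mean was 0.523 (FPKM 0.66) for inhibitor sum to EIF4E, 0.666 (FPKM 0.528) for the EIF4EBP2 share and 1.23 (FPKM 1.28) for the EIF4E share of cap-binding genes. The last was 1.32 with principal transcript lengths and 1.23 with median coding lengths, and EIF4E ranked 3 in place of 7 with the last. That of MKNK2 to MKNK1 stayed within its spread. A replicate block gave 3736 calls and 3 members. Deviations of same-numbered libraries correlated at -0.0295, 0.0156 and 0.0295, and not every library correlated best with its own number. With 3 libraries a group, such values cannot settle whether same-numbered libraries share a culture or day.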
